A study of Mus musculus with 8 samples.

Results

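The integrin chains of leukocytes examined here are the genes Itgal, Itgb2, Itgam, Itgax, Itga4, Itgb1, Itgb7, Itgae, Itgav and Itga6. They were taken by symbol from the table of exon RPKM (read density over the exons of a gene, adjusted for sequencing depth). All 10 were among its 13204 genes, and all 10 passed the filter on low values, which kept 11946 genes. The study sequenced poly(A) RNA of mouse CD8 T cells of the OT-I strain, whose T cell receptor recognises a peptide of ovalbumin (OVA). Per the labels, 1000000 OT-I cells were transferred 24 hours before the recipients received OVA-expressing skin, and cells were taken on day 14 after grafting. Each of 4 replicates was a pool of 3 spleens. From every pool 1000 cells were sorted as CD44hi Thy1.1+ CD8+ and positive for FcgRIIB, the inhibitory receptor for IgG, and another sort with the same gate took FcgRIIB-negative cells. All 8 libraries therefore share the receptor transgene, the transfer, the graft and the day, and the groups of 4 differ in the FcgRIIB sort. The labels name no ungrafted or untransferred control and give no age of the animals. Replicates are separate pools. The main fit compares the sorts within each pool. Its p-values set that difference against its spread over the pools, but each gene's spread is drawn towards that of other genes. The SE can therefore differ from one taken from the gene's own 4 pools. A test that ignores the pools also takes in the spread of levels between them.

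Integrins are cell surface receptors made of an alpha and a beta chain, and neither chain reaches the surface in quantity without a partner. On leukocytes the beta2 chain (Itgb2) pairs with the alphaL (Itgal), alphaM (Itgam) or alphaX (Itgax) chain. The beta7 chain (Itgb7) pairs with alpha4 (Itga4) or alphaE (Itgae), and beta1 (Itgb1) pairs with alpha4, alphaV (Itgav), alpha6 (Itga6) and others. They hold T cells to vessel walls, to antigen-presenting cells, to epithelium and to matrix, and switch from a resting to a binding shape when signals inside the cell bring talin and kindlin to the beta tail. In the spleen, LFA-1 (Itgal with Itgb2) is carried by T cells and by most other leukocytes, CD11b (Itgam) is typical of monocytes and macrophages and CD11c (Itgax) of dendritic cells, whereas CD103 (Itgae) is found both on tissue-resident CD8 T cells and on cross-presenting dendritic cells.

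Depth, recovered from the size of 1 read in low values, was 3060000 to 17960000 reads in the negative libraries and 5310000 to 22010000 in the positive ones, and replicates 1 and 2 were the deeper in both groups. Every value of the 10 chains rested on at least 98 reads. As a check of the labels, Fcgr2b (which encodes FcgRIIB) measured 48.5 ± 17.8 RPKM with the positive sort against 3.65 ± 1.43 RPKM with the negative sort (SD, n = 4), a log2 difference of 3.40 (SE 0.28, adjusted p = 8.23e-09). The T cell marker Cd3e was present in both groups. It was at 191 to 373 RPKM in positive libraries and at 430.4 to 688 RPKM in negative ones. Cd8a, a gene of the sort gate, was at 153 to 239.5 RPKM in positive and 165 to 330.4 RPKM in negative libraries. Markers of other cells moved with the sort. All 12 of 12 dendritic cell markers were called higher in the positive group, with a summed level of 591 to 1244 RPKM against 18.5 to 70.9 RPKM, and so were 11 of 12 red pulp macrophage markers (1145 to 1772 against 107 to 399.9 RPKM) and 8 of 8 basophil and mast cell markers (89.3 to 1282 against 9.30 to 44.9 RPKM). Of the 16 core T cell genes, 7 were called lower and 0 higher, with 2243 to 4853 RPKM against 5919 to 9439 RPKM. Of the other marker lists, 2 of 9 monocyte and neutrophil markers were called higher and 0 lower, 0 of 8 B cell markers higher and 2 lower, 1 of 5 natural killer cell markers higher and 1 lower, and 0 of 2 megakaryocyte and platelet markers either way. Without the block all 12 dendritic cell markers stayed called, 9 of the macrophage and 4 of the basophil and mast cell markers, 1 monocyte and neutrophil marker, and 0 of the core T cell genes, B cell markers or natural killer cell markers. In bulk libraries such as these, fewer cells of a type and less RNA per cell cannot be told apart. The part of these markers in the results on integrins was not tested.

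Among the 10 chains, Itgax and Itgae were higher in FcgRIIB-positive cells and none was called lower. The test was limma on log2(RPKM + 1) with the pool as a block, and a gene was called at an adjusted p under 0.05 over all 11946 genes. That rule called 7.22% of all genes higher (863 genes) and 3.85% lower (460 genes), so 2 of 10 chains stand against 7.22% of genes, and 0 of 10 against 3.85%. At an unadjusted p under 0.05, 4 chains were higher (Itgax, Itgae, Itga4 and Itgam) and 1 was lower (Itgb7), beside 11% (1312) and 12.3% (1464) of all genes, so the single lower chain is near the background share. Without the block, 1 chain (Itgae) was called higher and 0 lower, where 3.03% of all genes (362) were called higher and 0.268% (32) lower. The median log2 difference was 0.27 over the 10 chains and -0.11 over all genes tested. When each library was scaled to its core T cell genes, the median of all genes moved to 0.81, 6410 genes were called higher and 18 lower, and 7 chains were called higher.

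**Figure D1:**
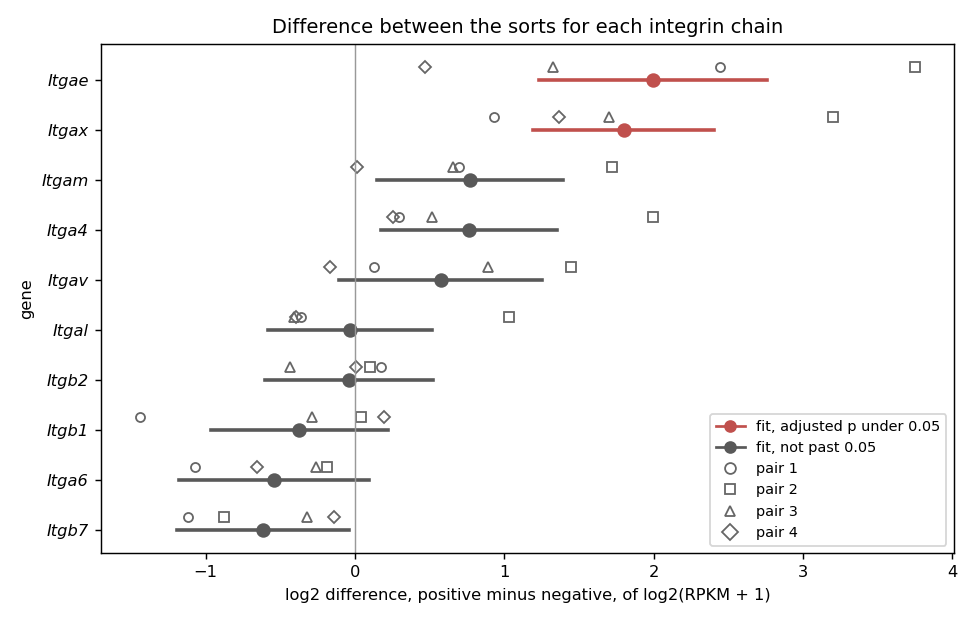
Log2 difference in RPKM + 1 (FcgRIIB-positive minus FcgRIIB-negative) of the 10 integrin chains, with the limma estimate and its 95% interval, and the difference within each of the 4 pools as single points. Itgax (1.80) and Itgae (1.997) have intervals that lie wholly above 1, and the points of Itgal, Itgb2, Itgb1 and Itgav fall on both sides of 0.

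The levels, given per kilobase of exon, set the chains in a broad order. Over all 8 libraries the mean was 268.8 RPKM for Itgb2, 235.7 for Itgb7, 174.9 for Itgb1, 103.1 for Itgal, 47.2 for Itgax, 17.1 for Itga4, 13.6 for Itgae, 7.98 for Itgam, 3.28 for Itgav and 3.21 for Itga6. The 3 beta chains led. None of the 9 gaps between neighbours in that order was larger than the bigger of the neighbours' SDs over the 8 libraries. Those SDs include the spread between pools, so they do not compare 2 chains within a library. Within libraries, Itgax lay above Itga4 in all 8, and no other neighbouring pair kept its order throughout. Itgae stood at place 6 in the positive group and at place 8 in the negative group.

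**Figure D2:**
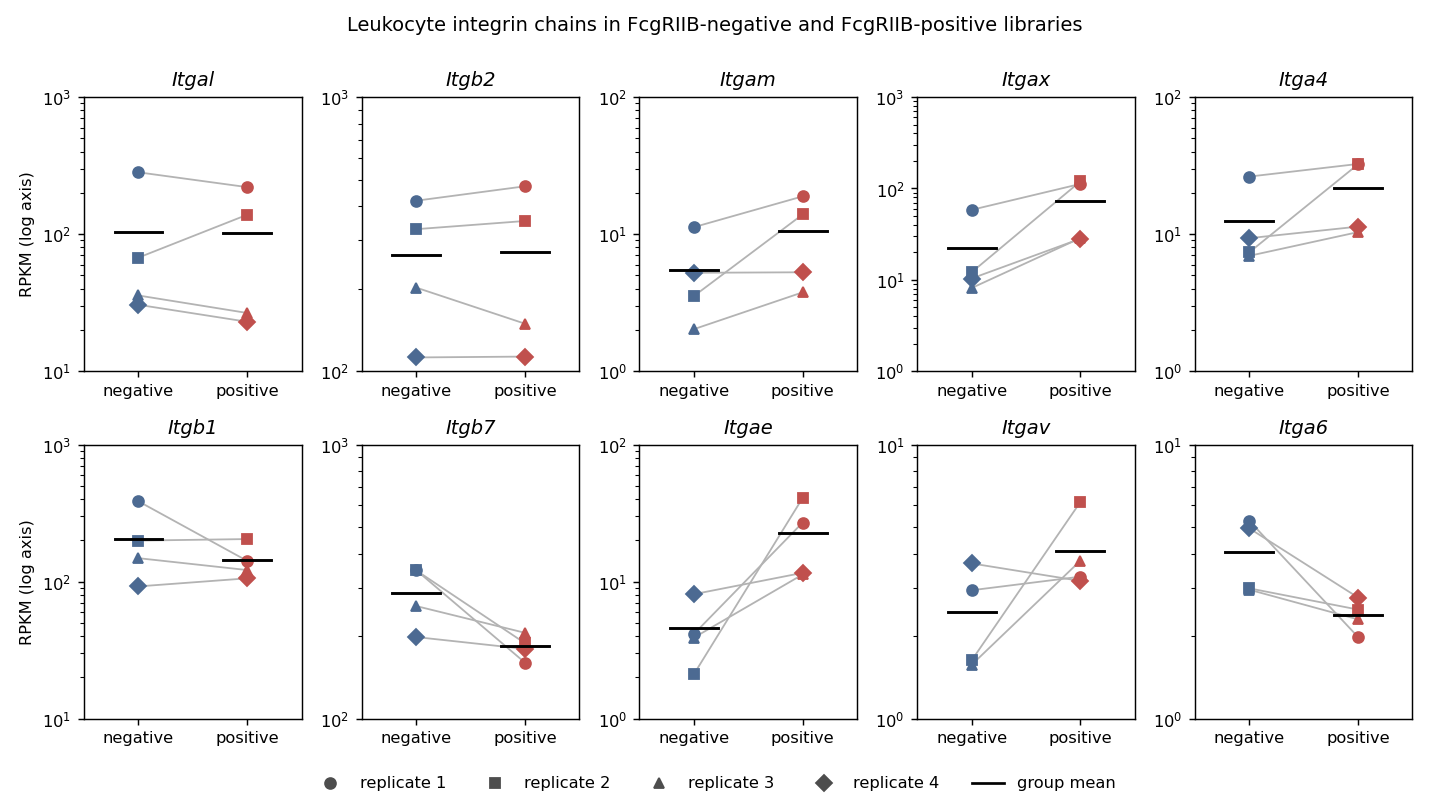
RPKM of each chain in every library on a log axis, FcgRIIB-positive beside FcgRIIB-negative, with a line joining the 2 libraries of a pool. The positive and negative points of Itgae do not overlap (11.3 to 40.8 against 2.11 to 8.10 RPKM), and Itgal and Itgb2 are higher in replicates 1 and 2 than in replicates 3 and 4, in both groups.

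Itgb2, the shared beta2 chain, gave 473, 353, 149 and 113 RPKM in the positive sort of replicates 1 to 4 and 419, 329.7, 202 and 112 RPKM in the negative sort. The groups overlapped, and the deeper replicates 1 and 2 were high in both. Its log2 difference was -0.04 (SE 0.27, 95% interval -0.60 to 0.52, adjusted p = 0.967). Pools accounted for 97.7% of its sum of squares over the 8 libraries and the sort for 0.0575%. The part of depth in this spread between pools was not tested.

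Itgal, the alpha chain of LFA-1 that binds ICAM molecules on other cells, followed the same pools. It was at 220.3, 139, 26.6 and 22.9 RPKM in positive libraries and at 283, 67.4, 35.7 and 30.5 RPKM in negative ones. The groups overlapped across a range that was wide in both. The positive library was higher in pool 2 only (1.03 on the log2 scale), and lower in the other 3 pools (-0.36 to -0.41). The log2 difference was -0.03 (SE 0.26, 95% interval -0.58 to 0.51, adjusted p = 0.969), and 94.7% of the sum of squares lay between pools. The interval leaves room for differences of either sign of about that size, so these libraries do not show that LFA-1 transcripts were equal. The sign of both Itgal and Itgb2 turned under 3 other scalings, and scaled to core T cell genes they were 0.89 and 0.88. That scaling adds the difference in the core T cell mean (0.92 in size) to every gene alike. With the pool as a block, limma then called both (adjusted p = 0.014 and 0.00368). The exact permutation test over libraries, which leaves the pools out, gave p = 0.343 for Itgal and p = 0.2 for Itgb2. On that scale both were higher in 4 of 4 pools, for which sign changes within pairs give an exact p of 0.125, their smallest.

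Itgax, the alpha chain of CD11c, was at 112, 119, 28.6 and 28.2 RPKM in positive libraries and at 58.3, 12.1, 8.12 and 10.3 RPKM in negative ones. The positive library was the higher in every pool, but the groups overlapped because negative replicate 1 lay above positive replicates 3 and 4. The rise was 3.48-fold, a log2 difference of 1.80 (SE 0.29, 95% interval 1.20 to 2.40, adjusted p = 0.000117). Within the pools it was 0.93, 3.21, 1.70 and 1.36 (SD 0.99). Those 4 values alone give an SE of 0.49, larger than the 0.29 of the fit. Without the block the SE was 0.66 and the adjusted p was 0.242. With the block, leaving out any 1 pool kept the call (log2 1.33 to 2.09, adjusted p up to 0.00302). Itgax was also called with replicates 1 and 2 only and with replicates 3 and 4 only. Those fits hold so few libraries that they rest mostly on spread borrowed from other genes, so they add little to the call. The gene whose log2 level followed Itgax most closely was Gmfb (r = 0.98, a description over 8 libraries), which is not among the dendritic cell markers.

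Itgam, the alpha chain of CD11b, was at 18.9, 13.9, 3.76 and 5.27 RPKM in positive libraries and at 11.2, 3.53, 2.02 and 5.22 RPKM in negative ones. Pools 1 to 3 were higher in the positive library by 0.65 to 1.72 on the log2 scale, pool 4 by 0.01, and the groups overlapped. The log2 difference of 0.77 (SE 0.30, 95% interval 0.15 to 1.39) did not pass the test (adjusted p = 0.107). Without pool 4 it did (1.02, adjusted p = 0.0342), whereas without pool 2 it was 0.45 (adjusted p = 0.447) and with replicates 3 and 4 only 0.33 (adjusted p = 0.851).

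Itgam and Itgax lie next to each other on chromosome 7, followed by Itgad, and their log2 levels went together over the 8 libraries (Pearson r = 0.92, a description over libraries that share pools and depth). This was not particular to the neighbours, since Itga4 on chromosome 2 followed Itgam (r = 0.97) and Itgax (r = 0.96) more closely, and Itgal and Itgb2 had r = 0.93. The 250 bases before their start sites are shown to set the neighbouring genes side by side, from RefSeq on GRCm38.p6, at chr7:128062390-128062639 for Itgam and chr7:128129300-128129549 for Itgax, both on the plus strand, 5′ to 3′. Capitals mark matches, on either strand, to GAGGAA (the core of PU.1, a myeloid and B cell factor), TGTGGT (the core of RUNX factors), GGGCGG (the core of the general activator Sp1) or TATAAA (the core of the TATA box).
Itgam: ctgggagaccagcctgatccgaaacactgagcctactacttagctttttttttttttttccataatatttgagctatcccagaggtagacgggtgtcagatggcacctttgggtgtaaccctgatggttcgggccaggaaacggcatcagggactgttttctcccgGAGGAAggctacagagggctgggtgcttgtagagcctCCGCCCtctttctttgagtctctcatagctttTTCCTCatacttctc
Itgax: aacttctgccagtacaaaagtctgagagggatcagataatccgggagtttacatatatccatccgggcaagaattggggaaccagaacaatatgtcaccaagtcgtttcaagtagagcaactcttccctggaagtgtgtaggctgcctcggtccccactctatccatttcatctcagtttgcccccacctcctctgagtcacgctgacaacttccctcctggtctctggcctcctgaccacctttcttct
The Itgam window held 2 matches to the PU.1 core and 1 to the Sp1 core, and the Itgax window held none of the 4 motifs. The PU.1 core was found in 23.3%, the RUNX core in 14.0%, the Sp1 core in 32.7% and the TATA box in 12.4% of 32851 promoter windows of that length. The windows differ in these letters and are similar in GC content (49.6% and 50%, with a median of 52.4% over all windows). A match is a description of letters. Promoter entries matched 6 of the 10 chains, and those of Itga4, Itgb1, Itgb7 and Itgav are not printed because no result turns on them.  The annotated transcripts of Itgax and Itgad share 384 words of 50 bases, 8.02% of those of Itgax, so reads in those parts could be split between the 2 genes and both values carry that uncertainty. Each of the 10 chains was compared with the others of 26 integrin genes, and this was the 1 pair that shared such a word. Itgam shares 3450 exon bases with Gm49368 on the same strand, Itga4 shares 1124 with Cerkl and Itgav 634 with Gm13684 on opposite strands, and reads in those bases cannot be assigned to either gene for certain.

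Itgae, the alphaE chain that with beta7 binds E-cadherin of epithelial cells, was at 27.0, 40.8, 11.3 and 11.6 RPKM in positive libraries and at 4.15, 2.11, 3.90 and 8.10 RPKM in negative ones. Every positive library lay above every negative one, with the narrowest gap between negative replicate 4 and positive replicate 3. Among all genes, 4.61% (551) were separated that way with the positive group higher and 4.15% (496) with it lower. The rise was 3.99-fold, a log2 difference of 1.997 (SE 0.37, 95% interval 1.23 to 2.76, adjusted p = 0.000537), and 0.0336 without the block. In the pools it was 2.44, 3.75, 1.33 and 0.47 (SD 1.42). Those 4 values alone give an SE of 0.71, larger than the 0.37 of the fit. The rise stayed called in the 4 fits with the block that left out 1 pool (adjusted p up to 0.0223). With replicates 3 and 4 only it was 0.90 (adjusted p = 0.0896), and without the block and without 1 library it was called in 3 of 8 fits (adjusted p 0.0175 to 0.124). Of its sum of squares over the 8 libraries 69.4% went with the sort and 4.19% with the pool. The gene whose log2 level followed it most closely over the 8 libraries was Wdfy4 (r = 0.99), 1 of the dendritic cell markers, then Rnf144b and Gprc5c (r = 0.99 each), as a description over 8 libraries.

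Itgb7, the beta chain that Itgae and Itga4 both use, stood in the opposite order on the RPKM scale. It was at 160.1, 189, 206 and 179.7 RPKM in positive libraries and at 348, 348, 258 and 198 RPKM in negative ones. The positive library was the lower in all 4 pools (-0.14 to -1.12 on the log2 scale), and the groups overlapped at positive replicate 3 and negative replicate 4. The log2 difference of -0.62 (SE 0.28, 95% interval -1.19 to -0.04) did not pass the test (adjusted p = 0.179), and relative to core T cell genes it was 0.31 with the opposite sign. The highest correlations of its log2 level were with Dda1, Cdkn2aip and Sh3glb2 (r = 0.96 to 0.97).

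Itga4, the alpha4 chain that binds VCAM-1 with beta1 and MAdCAM-1 with beta7, was at 32.5, 32.4, 10.35 and 11.3 RPKM in positive libraries and at 26.3, 7.36, 6.94 and 9.34 RPKM in negative ones. The positive library was higher in 4 of 4 pools, with pool 2 apart (1.996 on the log2 scale, against 0.26 to 0.51 in the others), and the groups overlapped. Its log2 difference was 0.77 (SE 0.28, 95% interval 0.18 to 1.36, adjusted p = 0.0903). The value rested much on pool 2: without it the difference was 0.36 (adjusted p = 0.544), and with replicates 3 and 4 only 0.39 (adjusted p = 0.697). Without pool 4 it was 0.94 and passed (adjusted p = 0.0359).

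Itgb1, the beta chain with the most partners, was at 142, 205, 121 and 106 RPKM in positive libraries and at 386, 199, 148 and 92.3 RPKM in negative ones. Negative replicate 1 was the high library, and the groups overlapped. The log2 difference was -0.37 (SE 0.28, 95% interval -0.97 to 0.22, adjusted p = 0.489). It rested on pool 1: without that pool it was -0.02 (adjusted p = 0.984), and without the block and without negative replicate 1 it was -0.009.

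Itgav and Itga6 were the least abundant chains. Itgav, which with beta1 and other beta chains binds fibronectin and latent TGF-beta, was at 3.30, 6.17, 3.77 and 3.18 RPKM in positive libraries and at 2.94, 1.63, 1.57 and 3.685 RPKM in negative ones, with overlap and a log2 difference of 0.57 (SE 0.33, adjusted p = 0.318), or 0.28 without pool 2. Itga6, a laminin receptor chain, was at 1.985, 2.5, 2.30 and 2.77 RPKM in positive libraries and at 5.27, 2.99, 2.955 and 4.95 RPKM in negative ones. No positive value of Itga6 reached the lowest negative one. Of the 10 chains, Itga6 was thus separated with the positive group lower and Itgae with it higher, beside 4.15% and 4.61% of all genes. Its log2 difference of -0.54 (SE 0.31) did not pass (adjusted p = 0.311), and relative to core T cell genes it was 0.38 with the opposite sign.

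Ratios of an alpha chain to its beta partner in the same library do not depend on how the libraries were scaled, apart from the pseudocount of 1 RPKM. On the log2 scale the Itgax to Itgb2 ratio was -1.98 ± 0.33 in positive and -3.82 ± 0.89 in negative libraries (SD, n = 4), and Itgae to Itgb7 was -3.16 ± 0.94 and -5.77 ± 0.99. Both differences (1.84 and 2.61) gave an exact two-sided permutation p = 0.0286, the smallest that 4 against 4 allows, and 0.114 after adjustment over the 8 ratios, so no ratio passed. The Itga4 to Itgb1 ratio differed by 1.14 (exact p = 0.0571, adjusted 0.152), Itga4 to Itgb7 by 1.38 (exact p = 0.114, adjusted 0.229) and Itgam to Itgb2 by 0.81 (exact p = 0.171, adjusted 0.229). In each of these 5 the positive library was the higher in 4 of 4 pools, for which sign changes within pairs give an exact p of 0.125, their smallest. Itgal to Itgb2 did not move by more than its spread (0.00, exact p = 1), nor did Itga6 to Itgb1 (-0.17, exact p = 0.8286), and Itgav to Itgb1 gave 0.95 (exact p = 0.143, adjusted 0.229).

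**Figure D3:**
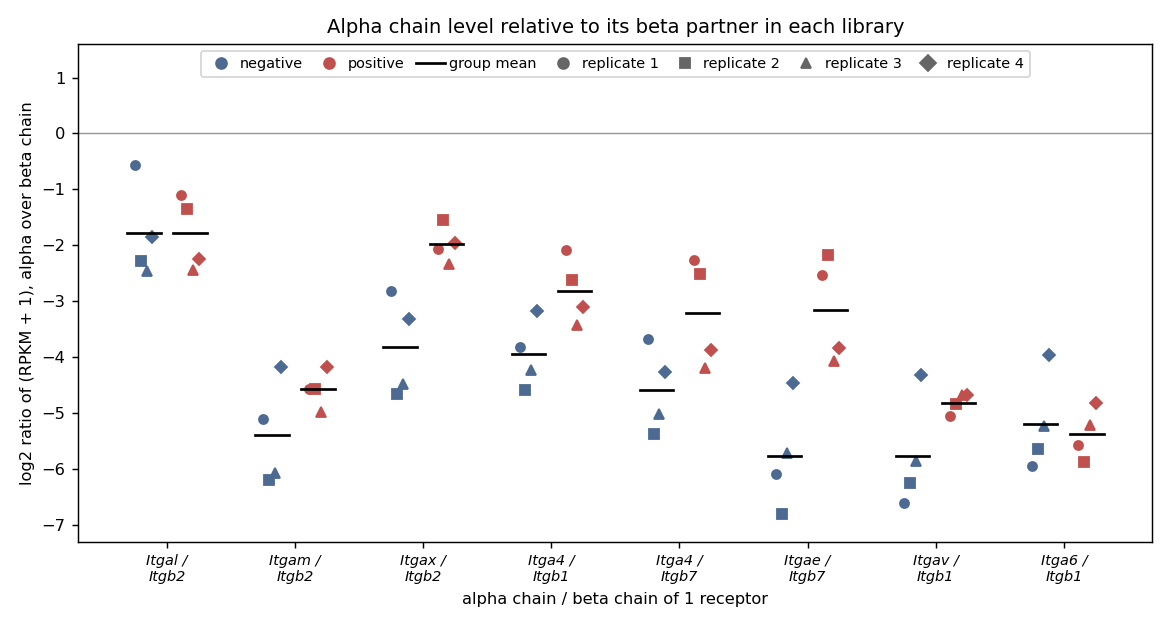
Log2 ratio of RPKM + 1 of an alpha chain to its beta partner, for the 8 pairings, in every library (negative in blue, positive in red, the group mean as a bar). The groups are apart for Itgax to Itgb2 and Itgae to Itgb7 and share their range for Itgal to Itgb2.

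Set against the 16 core T cell genes of the same library, whose mean log2 level was 6.70 ± 0.36 in positive and 7.62 ± 0.22 in negative libraries (difference -0.92, exact permutation p = 0.0286), every chain lay higher in the positive group. The differences ran from 0.31 for Itgb7 to 2.92 for Itgae, with 2.72 for Itgax, 1.69 for both Itgam and Itga4 and 1.498 for Itgav. Itgae and Itgav had an exact p of 0.0286 and Itgax, Itgam and Itga4 of 0.0571, and over the 10 chains the lowest adjusted p was 0.114. The core T cell mean enters all 10 differences. On that scale the median over all genes tested was 0.81, so a higher level in the positive group is shared with most genes. Itgb7 (0.31), Itga6 (0.38) and Itgb1 (0.55) lay below that median.

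The remaining integrin chains of the mouse, taken as a list of 16, were at 15.5 to 87.7 RPKM in sum per library. Of the 13 tested, 3 were called higher and 0 lower, beside 7.22% and 3.85% of all genes, with a median log2 difference of 0.19. Before adjustment, 4 higher and 0 lower had a p under 0.05, beside 11% and 12.3% of all genes. Without the block 0 and 0 were called. Itgad, the alphaD chain and the third partner of Itgb2 in this locus, was at 28.8, 43.6, 6.68 and 8.27 RPKM in positive libraries and at 4.45, 4.97, 2.23 and 6.90 RPKM in negative ones, a log2 difference of 1.71 (SE 0.34, adjusted p = 0.0013 with the block, 0.151 without). Positive replicates 1 and 2 held the largest values, as they did for Itgax, and the groups overlapped. Itga8 differed by 1.79 (adjusted p = 0.0064) and Itgb5 by 1.20 (adjusted p = 0.0281), both in 3 of 4 pools and at low levels, and neither was called without the block.

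Among the ligands, 6 of 13 tested were higher and 1 lower (2 and 0 without the block), with a median log2 difference of 0.83. Of all genes, 7.22% were called higher and 3.85% lower (3.03% and 0.268% without the block). Vcam1, the ligand of alpha4 beta1, was at 160.3, 202, 44.0 and 44.2 RPKM in positive and 12.8, 39.1, 3.40 and 7.14 RPKM in negative libraries, a log2 difference of 2.93 (SE 0.25, adjusted p = 1.72e-08). Icam1, which binds LFA-1, was 0.83 higher (adjusted p = 0.0315), and Icam2, which binds it too, was 1.08 lower (log2 difference -1.08, adjusted p = 0.00924). Cdh1, the E-cadherin that alphaE beta7 binds, was 1.07 higher (adjusted p = 0.0484), and Spp1, a ligand of alphaV chains and others, 2.14 higher (adjusted p = 0.000275). Fn1 and F11r were also called higher. Icam1, Cdh1, Fn1 and F11r were named after their values were seen, and Vcam1 and Spp1 alone kept a call without the block (adjusted p = 0.0401 and 0.0247).

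Of 16 tested genes for the switch from the resting to the binding shape, 1 was called higher and 2 lower (1 and 0 without the block). Their median log2 difference was -0.29. Over all genes 7.22% were called higher and 3.85% lower, so the single higher gene is near the background share. Skap2, the adaptor used in myeloid cells, was at 165 ± 63.7 RPKM in positive and 19.7 ± 10.2 in negative libraries (log2 difference 3.04, SE 0.23, adjusted p = 3.24e-09), and Skap1, its T cell relative, at 27.8 ± 8.21 against 67.6 ± 17.5 RPKM (-1.25, SE 0.25, adjusted p = 0.00132 with the block and 0.0901 without). Rasgrp1, an exchange factor, was 0.75 lower (log2 difference -0.75, adjusted p = 0.0484 with the block and 0.559 without). Of 9 genes that restrain activation, 0 were called higher and 1 lower (2 and 2 at an unadjusted p under 0.05, where all genes gave 11% and 12.3%), with a median of 0.22: Itgb1bp1, which competes for the beta1 tail, was at 31.2 ± 9.52 against 54.9 ± 14.3 RPKM (-0.80, adjusted p = 0.0314 with the block and 0.368 without).

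Behind the receptor, 5 of 21 signalling genes were higher and 2 lower (2 and 0 without the block), with a median of 0.35. The shares of all genes were 7.22% higher and 3.85% lower (3.03% and 0.268% without the block). The kinases Lyn (76.7 ± 46.3 against 10.7 ± 9.91 RPKM, log2 2.86, adjusted p = 1.99e-08) and Fgr (39.2 ± 26.0 against 9.70 ± 5.64 RPKM, log2 1.78, adjusted p = 2.26e-05) are best known from myeloid and B cells, and both were called higher. Fyn (-1.06) and Zap70 (-0.89), kinases of T cell receptor signalling, were called lower, and Syk (1.55) and Lims1 (1.02) were called higher. These 4 were named after their values were seen. Lyn kept its call without the block (adjusted p = 0.0156), and Fgr did not (0.12). Of the 9 tetraspanins and CD47, which sit beside integrins in the membrane, 3 were higher and 2 lower (2 and 1 without the block), with a median of -0.10. The same shares of all genes stand beside these counts. Cd81 was at 290.0 ± 100.7 against 29.7 ± 32.1 RPKM (log2 3.66), Cd63 at 129.6 ± 65.2 against 8.05 ± 7.80 RPKM (3.97) and Tspan32 at 24.2 ± 9.36 against 72.1 ± 15.0 RPKM (-1.58, adjusted p = 8.76e-05). Cd9 (1.25) and Cd37 (-0.84), also named after their values were seen, completed the called ones and were not called without the block.

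**Figure D4:**
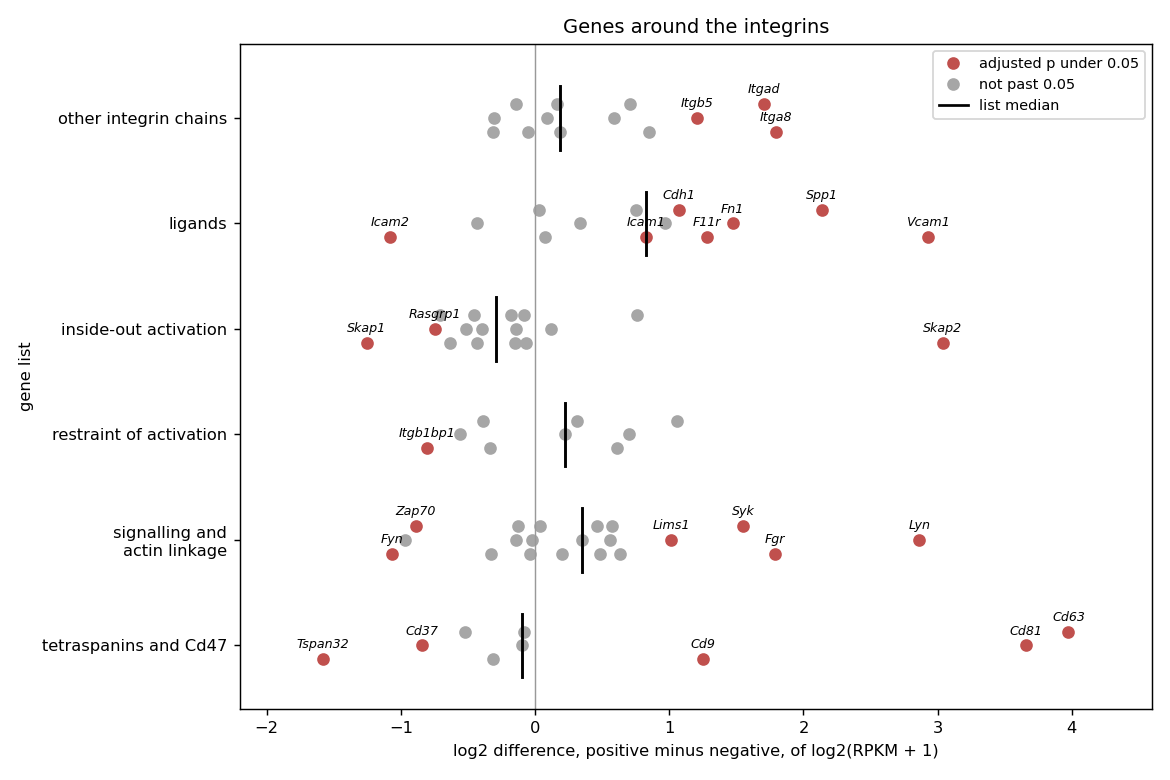
Log2 difference in RPKM + 1 (FcgRIIB-positive minus FcgRIIB-negative) of the tested genes of the 6 integrin lists, 1 point a gene (1 called gene of the signalling list is not drawn), with called genes in red and named, and the list median as a bar. Together 18 of 81 tested genes were called higher and 8 lower, and the list medians lie between -0.29 and 0.83. Of all genes tested, 7.22% were called higher and 3.85% lower.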

How the data were processed

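Poly(A) RNA of 8 libraries (4 FcgRIIB-positive, 4 FcgRIIB-negative) was turned into cDNA (SMART-seq v4) and tagmented (NexteraXT), per the labels' protocols. The authors deposited RPKM per gene and the exon length of each gene, per the file headers. TopHat2, with no version, and the build mm9 come from the submitters' processing notes. The gene counter and its strand setting are "not given in the sources used here".

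Libraries were placed by the labels' group and replicate number. RPKM were tested as log2(RPKM + 1) with limma 3.58.1 in R 4.3.3 (trended empirical Bayes, two-sided, Benjamini-Hochberg over 11946 genes that reached 1 RPKM in 4 or more libraries; 1258 others were left out), with the replicate number as a block. A fold change on this scale understates the change of low genes. The series' design text says that both sorts of a number came from 1 pool, and deviations of same-numbered libraries from their group means correlated at r = 0.41 to 0.70 in the 4 pairs. Chain ratios and values relative to core T cell genes were tested by exact permutation. Low values were whole multiples of 1 read, within 0.1 reads, which gave the depths. Date-like entries in the symbol column (21) were set back to gene symbols by their IDs. The script was tested on simulated data.

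The 10 members, the 6 integrin lists and the cell type marker lists were chosen with earlier results of these data known. Named genes were all 10 members, up to 3 called genes per list by smallest p, and the sort marker. The 3 genes most correlated with Itgae and with Itgb7, and the 1 most correlated with Itgax, were also named. The values of 1 called gene of the signalling list are not reported here, and it is kept in that list's counts and median. Shared sequence and exon overlap were checked in GENCODE M21, promoters in RefSeq GRCm38.p6. Alternatives were the fit without the block, a pseudocount of 0.1, no filter, 4 other scalings, leaving out each replicate number or, without the block, each library, and replicates 1 and 2 or 3 and 4 only. Fits on 2 replicate numbers hold little spread of their own and lean on that of other genes. Of the values relative to core T cell genes, the alternatives were chosen after seeing the data.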

Additional observations from a re-analysis of the deposited data

How the results depend on the processing

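Without the replicate block, 362 genes were called higher and 32 lower (863 and 460 with it), 1 integrin chain higher (2 with it), and 7 and 1 genes of the 6 lists (18 and 8 with it). Without the block and without negative replicates 1 to 4 and positive replicates 1 to 4 in turn, the genes called higher numbered 250, 298, 178, 503, 264, 252, 372 and 367, those called lower 17, 7, 5, 45, 19, 11, 13 and 18, the chains called higher 1, 0, 0, 1, 0, 0, 1 and 1, the list genes called higher 5, 6, 4, 9, 6, 5, 8 and 7 and lower 1, 0, 0, 2, 0, 0, 0 and 1. Scaled to core T cell genes, the counts were 6410 and 18 genes, 7 chains, and 55 and 1 list genes. Median ratios gave 5 list genes lower. With the block, leaving out 1 replicate number gave 576 to 1242 genes higher and 157 to 458 lower (157 without replicate 3), 2 to 4 chains higher, and 11 to 23 and 3 to 7 list genes. Replicates 1 and 2 only gave 178 genes and 4 list genes lower, and replicates 3 and 4 only 249 genes lower, 1 chain higher, and 10 and 3 list genes. Itgal (-0.03) turned to 0.0073 with median ratios, 0.15 with quantiles, 0.89 relative to core T cell genes, 0.34 with replicates 1 and 2 only, and, without the block, 0.65, 0.39 and 0.46 without negative replicate 1, positive 3 and positive 4; it ran from -0.39 to 0.091 without 1 replicate number. Itgb2 (-0.04) turned to 0.00496 with median ratios, 0.081 with quantiles, 0.88 relative to core T cell genes, 0.14 with replicates 1 and 2 only, and, without the block, 0.24, 0.12, 0.17 and 0.30 without negative replicates 1 and 2 and positive 3 and 4; it ran from -0.11 to 0.095 without 1 replicate number. Relative to core T cell genes Itgb1 became 0.55, Itgb7 0.31 and Itga6 0.38. The Itgal to Itgb2 ratio (0.0036) was -0.00027 with a pseudocount of 0.1 and -0.31 to 0.18 without 1 replicate number, and Itga6 to Itgb1 (-0.17) was -0.35 to 0.056. The cause was not tested. The other ratios and Itgam, Itgax, Itga4, Itgae and Itgav kept their sign in all settings run.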
